A study of Mus musculus with 10 samples.

Results

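The -VE-organoids are mouse small intestinal organoids grown in the Hyper medium without VPA, a histone deacetylase inhibitor, and without EPZ6438, an inhibitor of the methyltransferase Ezh2. They were compared with ENR-organoids, the conventional cultures from which both -VE cultures were derived, so the comparison addresses what the remaining components of the medium do. Members were chosen by the library labels: 2 -VE libraries and 3 ENR libraries, 5 of the 10 libraries of the series, with 13821 of the 25204 cells that the authors kept and annotated. Both media held EGF at 50 ng/mL. ENR medium added Noggin at 100 ng/mL and R-Spondin1 protein at 500 ng/mL. The -VE medium held instead R-Spondin1 conditioned medium at 10%, LDN193189 at 0.2 µM, GSK-3 Inhibitor XV at 0.1 µM, Pexmetinib at 1 µM and FGF2 at 20 ng/mL. Neither medium held VPA or EPZ6438, and the effects of single components cannot be told apart in this design. ENR 1 was sampled at passage 2, ENR 2 at passage 7 and ENR 3, grown from primary crypts, at passage 3. -VE 1 was sampled at passage 1 and -VE 2 at passage 6. ENR 1 and -VE 1 share the number 2 in their library names and ENR 2 and -VE 2 the number 6, while ENR 3 has no -VE partner. The labels do not say that the libraries came from separate animals, so p-values measure the spread between these libraries only.

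As background, R-Spondin1 amplifies Wnt signalling through Lgr receptors, and blocking GSK-3 stabilises β-catenin, the coactivator of TCF/LEF factors that maintain crypt stem cells. Noggin binds BMP ligands outside the cell, whereas LDN193189 inhibits BMP type I receptors inside it, and BMP signals drive villus differentiation. Pexmetinib inhibits p38 kinase and the receptor Tie2, and FGF2 and EGF signal to ERK. The crypt holds stem cells (SC in the deposited annotation), transit-amplifying cells (TA) and Paneth cells (PC), and gives rise to enterocyte progenitors (EP), enterocytes (EC), goblet cells (GC) and enteroendocrine cells (EE).

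The kept cells carried 89124000 to 170020000 unique molecular identifiers (UMIs, counted mRNA molecules) per library, with medians of 38174 to 50652 UMIs per cell. Between 34.7% and 43.0% of the barcodes were kept in the ENR libraries, against 47.3% in -VE 1 and 63.9% in -VE 2. Any pair of the 5 libraries shared at most 4 cell barcodes. Of the markers listed for each class, all 4 were highest in their own class for EC, GC, PC and EE, 3 of 4 for SC and for TA, and 2 of 4 for EP, where Cfhr2 and Pycard were highest in EC. The goblet marker Tff3 was at 14684 UMIs per 1000000 in GC and 13612 in PC, and Muc2 at 786 and 710. Markers of 7 immune genes summed to 0.662 to 0.838 UMIs per 1000000 UMIs of the library (CPM) in the ENR libraries and 0.823 to 0.862 in the -VE libraries. The 7 stromal markers summed to 5.95 to 15.7 CPM in ENR and 5.30 to 9.86 in -VE, with Col3a1 and Lum at 0 in all 5 libraries, and the 3 endothelial markers to under 0.5 CPM with Cdh5 at 0. Of the 7 stromal markers 6 were under 1 CPM in all 5 libraries, and Vim made up most of each sum. Vim had means of 713 CPM in ENR and 568 in -VE in enteroendocrine cells, against 0.204 and 0.249 in stem cells.

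Shares are given for 7 classes. A further deposited class, RSC, held 8 and 17 cells in -VE 1 and 2 and 0 in each ENR library, where the exact 95% upper bounds were 0.142% to 0.168%, and was too small to be tested alone. Stem cells made up 14.7%, 12.2% and 9.75% of the kept cells of ENR 1, 2 and 3, and 28.2% and 24.3% of -VE 1 and 2. Enterocyte progenitors made up 22.2%, 24.4% and 34.5% in ENR and 4.39% (exact binomial 95% interval 3.61 to 5.29%) and 4.29% (3.70 to 4.94%) in -VE, intervals that cover counting error only. The groups did not overlap in either class. Mean stem cell share was 14.0 points higher and progenitor share 22.7 points lower in -VE. TA cells were 12.3 points and goblet cells 2.75 points more frequent in -VE, while enterocytes were 5.80 points and Paneth cells 0.452 points less frequent, again without overlap. Enteroendocrine shares overlapped, with 3.29%, 3.04% and 2.60% in ENR and 3.05% and 2.07% in -VE. With 2 libraries against 3 there are 10 arrangements, so the two-sided exact permutation test cannot give a p under 0.2, and it gave 0.2 for each of the 6 classes without overlap (0.233 after Benjamini-Hochberg adjustment over 7 classes) and 0.6 for enteroendocrine cells. Within the libraries numbered 2 the progenitor share was lower by 17.8 points and within those numbered 6 by 20.1 points, and the stem cell share was 13.5 and 12.1 points higher. The share of kept cells in class PC, difference in percentage points, came to -0.207 and -0.164 within these 2 series, to -0.0685 under the study's stated cell filter, and ran from -0.604 to -0.185 when 1 library was left out (-0.185 without ENR 3).

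**Figure D1:**
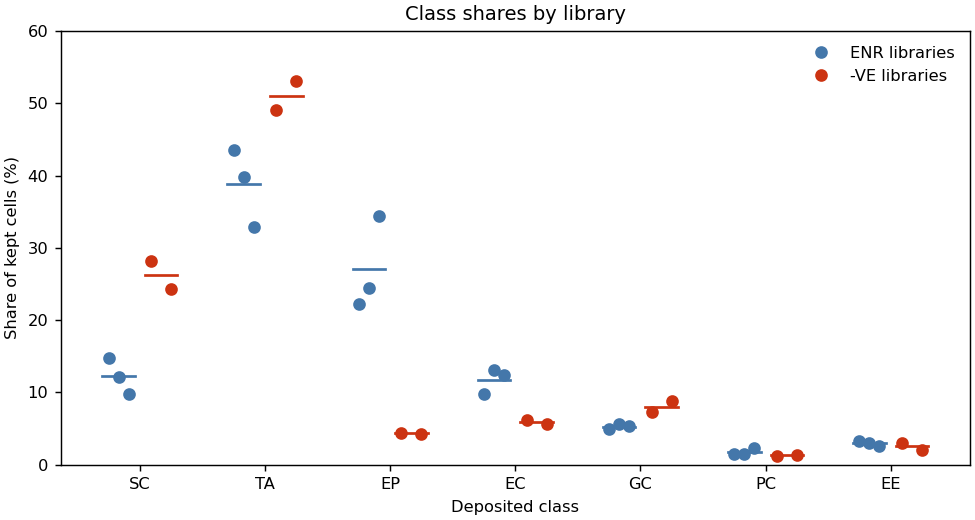
Share of kept cells (%) in each deposited class for the 3 ENR libraries (blue) and the 2 -VE libraries (red), with group means as lines. Stem and TA cells are above and enterocyte progenitors below the ENR libraries in both -VE libraries, at 4.39% and 4.29% for the progenitors.

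UMIs were summed per library and tested with edgeR's quasi-likelihood test, in a fit of 8 organoid libraries in which 3 Hyper libraries enter only for the estimate of spread. A gene was called when its Benjamini-Hochberg adjusted p was under 0.05 and its change at least 2-fold. Of 16037 genes tested, 2.55% were called, 1.35% higher and 1.20% lower in -VE, whereas 7329 genes (45.7%) had groups that did not overlap. In sums over all kept cells, fewer cells of a type and less RNA per cell cannot be told apart. Every change was therefore also computed with the 7 class shares held equal in all libraries, as a difference of log2(CPM + 0.5) without a test. Levels below are TMM-scaled CPM of 3′ UMI counts, which are compared within a gene and not between genes.

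The rises described next are the largest among called genes without overlap and with at least 10 CPM in -VE, and some genes at lower levels had larger changes. Igfbp4, a secreted IGF-binding protein, was at 43.3, 32.9 and 25.2 CPM in ENR 1, 2 and 3 and at 126 and 189 CPM in -VE 1 and 2 (log2 fold change 2.22, SE 0.24, edgeR adjusted p = 0.00323). Bambi, a pseudoreceptor that dampens TGFβ and BMP signals, was at 3.87 to 4.39 CPM in ENR and at 10.8 and 14.0 in -VE (1.58, SE 0.13, adjusted p = 0.00193). Both -VE libraries lay above every ENR library for these and for the other 12 rises reported. Lgals1, a galectin, rose by 1.87 (SE 0.18) and Anxa5, a phosphatidylserine-binding protein, by 1.67 (SE 0.23). The zinc finger regulator Zfp503 ranged from 0.935 to 2.96 CPM in ENR and was at 6.49 and 15.6 in -VE (2.49, SE 0.47, adjusted p = 0.0204). Cpn1, a carboxypeptidase subunit, rose by 1.55, the uncharacterised 1500009L16Rik by 1.40, the adhesion molecule Esam by 1.53, the autophagy gene Atg9b by 1.94 and the chromatin remodeller Chd3 by 1.68. The remaining named rises were Ang4, 2210407C18Rik, Scarb1 and Pla2g5, which had changes of 2.01, 1.86, 1.45 and 1.34. With class shares held equal, the differences of the 14 genes ran from 0.90 (Pla2g5) to 2.04 (Zfp503), all positive. The call held whichever of the 5 libraries was left out for 6 of the 14, namely Igfbp4, Lgals1, Anxa5, Bambi, Cpn1 and 1500009L16Rik. Without -VE 2 only these 6 were called, and 10, 8, 9 and 13 were called without ENR 1, ENR 2, ENR 3 and -VE 1.

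The falls described next are the largest among called genes without overlap and with at least 10 CPM in ENR, a limit that Reg3d and Car4 do not reach. Adh4, an alcohol dehydrogenase, was at 7.14, 11 and 11.9 CPM in ENR and 1.00 and 0.621 in -VE (log2 fold change -3.64, SE 0.41, edgeR adjusted p = 0.0036). Fmo5, a flavin monooxygenase, was at 46.2, 61.9 and 61.5 CPM against 9.15 and 4.49 (-3.06, SE 0.39, adjusted p = 0.00572). In these 2 genes and the other 12 falls reported, the higher -VE library stayed below the lowest ENR library. Slc6a19, the neutral amino acid transporter of the brush border, was at 17.8, 25.3 and 19.2 CPM against 3.44 and 1.49 (-3.09, SE 0.40, adjusted p = 0.00612). Aoc1, the diamine oxidase that degrades histamine, was at 60.9, 68.2 and 61.2 CPM against 16.7 and 10.0 (-2.25, SE 0.20, adjusted p = 0.00193). Slc2a5, the fructose transporter, fell by 2.37 on the log2 scale, and Enpep, a brush border aminopeptidase, by 2.96. The secreted lectin Reg3a ranged from 23.5 to 55.8 CPM in ENR and was at 5.54 and 0.761 in -VE. The chemokine Ccl6 was at 8.21, 9.74 and 13.6 CPM against 0.873 and 2.26 (-2.73, SE 0.67, adjusted p = 0.0467). Sis, Cfhr2, Nat8, Ugt2b5, Cyp4f14 and Ggt1 complete the 14, with log2 changes from -3.06 to -2.45. At equal class shares all 14 remained negative and ran from -2.92 (Reg3a) to -1.39 (Ggt1). Adh4, Slc6a19, Fmo5, Enpep, Slc2a5 and Aoc1, 6 of the 14, were called whichever library was left out, and only they were called without -VE 2. Without ENR 1, ENR 2, ENR 3 and -VE 1, 10, 9, 11 and 11 of the 14 were called.

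**Figure D2:**
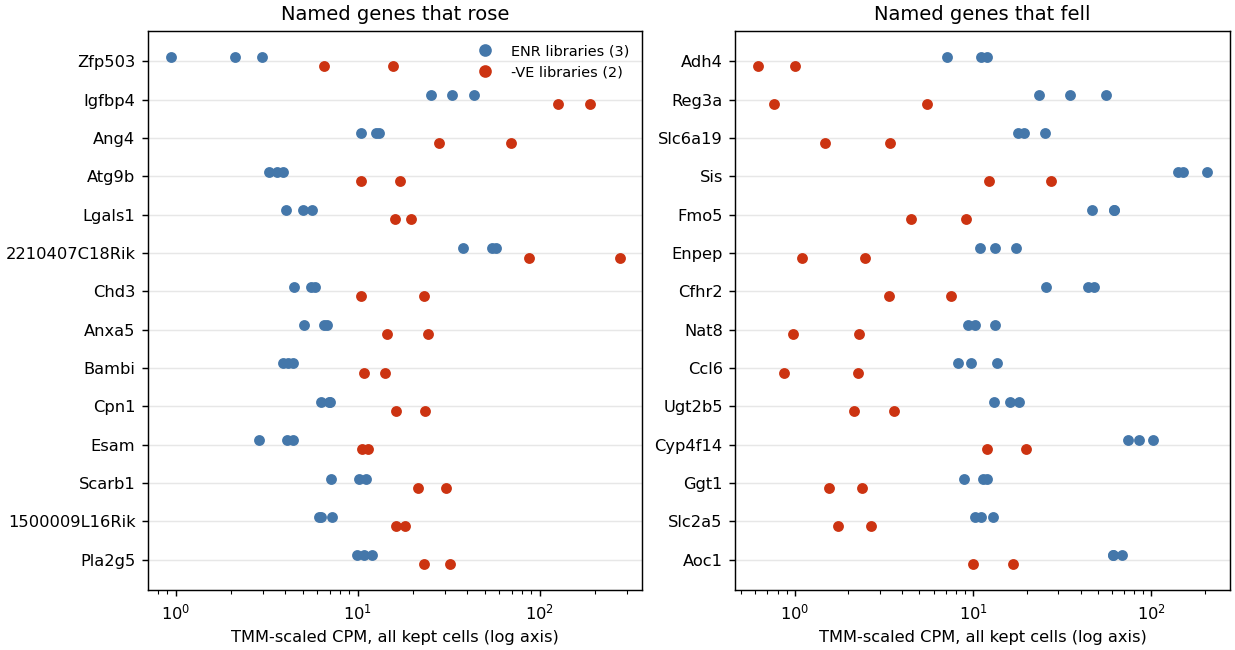
TMM-scaled CPM (log axis) of the 14 rises and 14 falls reported in all kept cells, 1 point per library, ENR in blue and -VE in red. The colours do not overlap in any gene. The -VE points of Reg3a lie far apart, at 5.54 and 0.761 CPM.

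Of 24 tested members of the Wnt target list, 2 rose and 0 fell in edgeR, against 1.35% of all genes called higher. Of the 24, 12 had an unadjusted p under 0.05, against 3847 of all 16037 genes, 2 were called by DESeq2, and the median log2 change was 0.42 against 0.00 over all genes. Sp5, a transcriptional target and feedback factor, was at 9.09, 10.9 and 8.73 CPM in ENR and 19.5 and 19.8 in -VE (log2 fold change 1.04, edgeR adjusted p = 0.00906). Tnfrsf19, a receptor also known as Troy, was at 0.311, 0.351 and 0.263 CPM against 2.22 and 3.48 (3.19, adjusted p = 0.00539), from 22 to 42 UMIs per library in ENR and 259 and 571 in -VE. The groups were apart for both. Lgr5, the R-Spondin receptor that marks crypt stem cells, was at 60.3, 58.1 and 46.6 CPM in ENR and 92.4 and 73.3 in -VE (0.59, adjusted p = 0.0596). As a difference of log2(CPM + 0.5), the list median was 0.20 in the mixture and 0.05 at equal class shares, and the Lgr5 difference was 0.23. Wnt3, a Wnt ligand, was at 3.87, 4.77 and 3.24 CPM in ENR and 7.78 and 9.97 in -VE (1.16, adjusted p = 0.0269), the only called gene of 20 Wnt ligands and receptors. Fzd5, a Wnt receptor chosen after its values were seen, was at 62.1, 60.1 and 59.9 CPM against 32.4 and 30.4 (-0.95, adjusted p = 0.00193), just under 2-fold. Among 22 tested crypt base stem cell genes Igfbp4 was the only one called. Sp5 was not called without ENR 1, without ENR 3 or without -VE 2, and Wnt3 was not called in any of the 5 fits that left out a library, while Tnfrsf19 and Igfbp4 were called in each.

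The promoters of both called Wnt targets are shown because each gene has a 300-base window (250 bases before the start and 50 after it, RefSeq, GRCm38.p6) with the TCF/LEF core CTTTGAT, in capitals where it stands on either strand. The core occurs in 3.73% of 32851 promoters and in windows of 2 of the 17 list genes matched by symbol of 26. Tnfrsf19 has 2 windows, of which 1 has no match. A match describes letters and not binding.
Sp5, chr2:70474673-70474972, + strand: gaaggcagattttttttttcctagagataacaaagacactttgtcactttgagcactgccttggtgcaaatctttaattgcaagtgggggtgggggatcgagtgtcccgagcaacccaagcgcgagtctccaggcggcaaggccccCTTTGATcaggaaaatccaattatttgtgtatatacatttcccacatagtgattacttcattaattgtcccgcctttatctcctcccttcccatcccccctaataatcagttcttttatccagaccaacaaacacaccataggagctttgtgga
Tnfrsf19, chr14:61037938-61038237, - strand: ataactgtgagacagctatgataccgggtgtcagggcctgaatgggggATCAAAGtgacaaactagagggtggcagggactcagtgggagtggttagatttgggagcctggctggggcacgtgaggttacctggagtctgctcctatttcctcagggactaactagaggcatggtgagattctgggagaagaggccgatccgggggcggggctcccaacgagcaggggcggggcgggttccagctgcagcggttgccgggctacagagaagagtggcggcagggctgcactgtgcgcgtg
Tnfrsf19, chr14:61046806-61047105, - strand: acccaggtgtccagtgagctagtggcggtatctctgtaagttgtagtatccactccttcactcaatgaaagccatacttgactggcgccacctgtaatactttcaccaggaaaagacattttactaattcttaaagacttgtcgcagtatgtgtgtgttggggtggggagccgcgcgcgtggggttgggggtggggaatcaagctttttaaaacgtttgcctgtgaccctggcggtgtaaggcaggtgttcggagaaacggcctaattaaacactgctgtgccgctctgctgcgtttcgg

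BMP readouts split by gene. Id3, an inhibitor of helix-loop-helix factors induced by BMP, was at 43.5, 45.9 and 39.9 CPM in ENR and 9.71 and 9.76 in -VE (log2 fold change -2.15, edgeR adjusted p = 0.000361). Id1 was at 63.1, 66.8 and 64.5 CPM against 22.3 and 21.9 (-1.55, adjusted p = 0.00592). The replicates of each group lay close together in both genes. Id4 was at 1.10, 0.852 and 1.23 CPM against 2.67 and 2.45 (1.28, adjusted p = 0.0265). Of 12 tested BMP targets 2 thus rose (Bambi and Id4) and 2 fell (Id1 and Id3), against 1.35% and 1.20% of all genes. At equal class shares the Id3 difference was -1.98 and that of Bambi 1.33, while that of Id4 moved from 0.98 to 0.64. Within goblet cells Id4 had means of 31.4 CPM in -VE and 16.4 in ENR and was not called (0.97, edgeR adjusted p = 0.0617). Id2 was lower in -VE without overlap but not called in these sums (-0.57, edgeR adjusted p = 0.133). It was called lower in EP (-1.09) and GC (-1.14). Bmp2, a ligand, was at 11.5, 11 and 15.1 CPM against 5.30 and 6.02 (-1.14, adjusted p = 0.0391), the only called gene of 18 BMP ligands, receptors and antagonists. Bmp7, named after its values were seen, was at 20.1, 20.6 and 15.6 CPM against 36.4 and 33.6 (0.90, adjusted p = 0.0136). Id3 and Bambi kept their calls whichever library was left out. Id1 lost its call without -VE 2, and Id4 and Bmp2 were not called in any of the 5 fits that left out a library.

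Feedback genes of the ERK pathway had differences in both directions. In sums over all kept cells none of 19 tested members was called by edgeR or DESeq2. An unadjusted p under 0.05 was reached by 10 of them, against 3847 of all 16037 genes. Etv4, an ETS factor induced by FGF and ERK, was at 29.3, 30.0 and 29.8 CPM in ENR and 53.8 and 59.1 in -VE (log2 fold change 0.93, edgeR adjusted p = 0.00353). Its relative Etv5 was at 9.13, 8.89 and 10.0 CPM against 16.1 and 17.1 (0.83, adjusted p = 0.0101). Dusp5, an ERK phosphatase, lay the other way, at 24.0, 29.7 and 26.9 CPM against 15.5 and 12.8 (-0.93, adjusted p = 0.00833). These 3 genes were chosen after their values were seen, and their groups did not overlap. Within classes 2 of 17 tested members were called in EC, 3 of 15 in GC and 2 of 11 in PC, against 3.34%, 1.14% and 1.07% of genes called. Etv4 rose in EC from 3.02, 2.72 and 4.41 CPM to 11 and 12.2 (1.79, edgeR adjusted p = 0.00213) and in GC by 1.31 (adjusted p = 0.0161), and Etv5 rose in GC by 1.12 (adjusted p = 0.0345) and in PC from 1.66, 0 and 1.45 CPM to 14 and 11.7 (3.61, adjusted p = 0.0301). Paneth sums held 680340 to 1344600 UMIs per library, so the Etv5 values in PC rest on few UMIs. Dusp5 fell in EC from 116, 132 and 102 CPM to 39.9 and 31.4 (-1.71, adjusted p = 0.000678). Egr1, an immediate early gene also in this list, fell in GC by 1.32 (adjusted p = 0.0245) and in PC by 1.22 (adjusted p = 0.00267). Both EC calls held in each fit without a library, and 0 of the 3 GC calls did without ENR 1, ENR 3 or -VE 2, nor did either PC call without ENR 2 or -VE 2. Among EGF family ligands, likewise chosen after their values were seen, Btc was at 9.09 to 11.1 CPM in ENR and 18.4 and 18.1 in -VE (0.85, adjusted p = 0.00522), and Hbegf was at 76.8 to 82.7 CPM against 50.4 and 46.8 (-0.72, adjusted p = 0.00193). In sums over all kept cells none of the 13 EGF family genes or the 15 FGF receptors and ligands was called by edgeR or DESeq2, with 4 and 3 at an unadjusted p under 0.05. Within classes Btc was called in EC (1.15, edgeR adjusted p = 0.00994) and Sdc1, a syndecan, in GC (1.00, adjusted p = 0.00582).

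Over all kept cells, in the p38 and Tie2 list 8 of 18 tested genes had an unadjusted p under 0.05 and 2 were called by DESeq2. In the immediate early list these counts were 9 of 18 and 2. Of all 16037 genes, 3847 had an unadjusted p under 0.05, DESeq2 called 562 and edgeR called 2.55%. Zfp36, which destabilises inflammatory mRNAs and is regulated by p38, was at 101, 110 and 78.9 CPM in ENR and 53.9 and 40.3 in -VE (log2 fold change -1.04, edgeR adjusted p = 0.0281), the only call among 18 tested genes of the p38 and Tie2 list in sums over all kept cells. Atf3, a stress-induced transcription factor, was at 53.2, 47.2 and 57.8 CPM against 24.9 and 12.7 (-1.49, adjusted p = 0.0463), the only call among 18 immediate early genes in these sums. Within classes Zfp36 was called lower in EC (-1.34, edgeR adjusted p = 0.00826) and PC (-1.55, adjusted p = 0.00246). Dusp1, also of the p38 and Tie2 list, was called lower in EC (-1.27, adjusted p = 0.00213) and GC (-2.01, adjusted p = 0.0227). Of the immediate early genes 3 were called lower in EC, 4 in GC and 6 in PC. Of all genes tested in these classes, 3.34%, 1.14% and 1.07% were called in either direction. In the sums of Zfp36 and Atf3 -VE 2 was the lowest library. Jun was at 475, 444 and 450 CPM against 337 and 244 (-0.65, adjusted p = 0.0232), and Fos at 307, 285 and 230 CPM against 180 and 128 (-0.83, adjusted p = 0.104). The immediate early list had a median change of -0.26, and its difference at equal class shares was -0.25. Atf3 was not called in any of the 5 fits that left out a library, and Zfp36 only in the one without ENR 3. Immediate early genes also respond to tissue dissociation, and its part in these values was not tested.

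Of 18 tested brush border digestive enzymes 7 were lower and 0 higher, with 12 at an unadjusted p under 0.05 and 7 called by DESeq2. Over all 16037 genes 1.20% were called lower, 3847 had an unadjusted p under 0.05 and DESeq2 called 562. Sis, the sucrase-isomaltase, was at 150, 205 and 140 CPM in ENR and 27.4 and 12.3 in -VE (log2 fold change -3.06, SE 0.50, edgeR adjusted p = 0.0131). Mme, the membrane endopeptidase neprilysin, was at 11.5, 13 and 9.85 CPM against 4.12 and 1.58 (-2.02, adjusted p = 0.0237). Treh, which splits trehalose, was at 9.63, 11.2 and 8.71 CPM against 3.33 and 3.61 (-1.50, adjusted p = 0.0111). Also lower were Enpep, Ggt1 and Mep1b, a meprin subunit with a change of -1.74. Among 17 sugar, amino acid and peptide transporters, 4 fell and 0 rose, with 12 at an unadjusted p under 0.05 and 5 called by DESeq2: Slc6a19, Slc2a5, Slc2a2, the basolateral glucose transporter (-2.31), and Slc6a20a, a proline transporter (-2.21). Slc5a1, the sodium-glucose cotransporter, was at 82.3, 96.4 and 78.7 CPM against 52.9 and 43.2 (-0.84, adjusted p = 0.00715), short of 2-fold. Of the 18 brush border structural genes, in sums over all kept cells, none was called by edgeR or DESeq2, 9 had an unadjusted p under 0.05, and the median change was -0.12. Equal class shares moved the enzyme list median difference of log2(CPM + 0.5) from -0.70 to -0.48 and the transporter median from -0.52 to -0.22. Without -VE 2, 1 of the 7 enzymes (Enpep) and 3 of the 4 transporters were still called.

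The promoter of Sis, the called enzyme gene with the largest fall, is shown (RefSeq, GRCm38.p6, same window), with capitals marking the HNF1 motif GTTAAT and the CDX core TTTATG on either strand, both named for factors known to bind this promoter. GTTAAT occurs in 7.10% and TTTATG in 11.9% of the 32851 promoters. Of the 20 listed enzyme genes 16 were matched by symbol, 2 with the HNF1 motif (Sis and Tmprss15) and 4 with the CDX core (Lct, Mep1a, Sis and Tmprss15).
Sis, chr3:72967814-72968113, - strand: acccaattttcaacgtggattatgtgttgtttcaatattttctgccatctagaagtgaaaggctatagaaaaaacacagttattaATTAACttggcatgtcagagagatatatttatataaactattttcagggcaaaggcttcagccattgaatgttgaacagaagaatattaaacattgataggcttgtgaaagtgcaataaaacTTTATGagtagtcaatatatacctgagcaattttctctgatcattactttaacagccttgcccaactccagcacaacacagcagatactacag

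Ion, lipid and bile acid handling followed in smaller numbers. For all 16037 genes, 1.20% were called lower and 1.35% higher, DESeq2 called 562 and 3847 had an unadjusted p under 0.05. Of 22 ion, metal and vitamin transporters 3 fell: Aqp8, a water channel, was at 2.08, 2.22 and 1.93 CPM in ENR and 0.257 and 0.0122 in -VE, Car4, a membrane carbonic anhydrase, had 29, 86 and 40 UMIs against 0 and 2, and Slc26a6, an anion exchanger, changed by -1.31 (log2, edgeR adjusted p = 0.0415). None of the 22 rose. Among 27 genes of lipid absorption and apolipoproteins, the acyltransferases Gpat3 (-1.33, adjusted p = 0.0102) and Mogat2 (-1.12, adjusted p = 0.00725) fell and Scarb1, the lipoprotein receptor, rose, while DESeq2 called 9 of the 27 and 16 had an unadjusted p under 0.05. Fabp2, an intestinal fatty acid carrier, was at 588, 712 and 686 CPM against 338 and 398 (-0.85, adjusted p = 0.00811). All 3 called genes of the bile acid list of 9 fell: the export pair Slc51a (-2.83, adjusted p = 0.0372) and Slc51b (-2.12, adjusted p = 0.016), and the bile acid receptor Nr1h4, or FXR (-1.06, adjusted p = 0.00572). At equal class shares the log2(CPM + 0.5) difference of Nr1h4 moved from -0.9975 to -0.553. Those of Slc51a and Slc51b moved from -2.44 and -1.65 to -1.64 and -1.12. Slc51a was called lower in EP and EC and Slc51b in EC. Nr1h4 was not called in any class. Its change was -0.284 in EC (edgeR adjusted p = 0.296) and -0.206 in EP (adjusted p = 0.689). In TA it was -0.994 (adjusted p = 0.00834), short of 2-fold. None of the 3 lipid genes was called without -VE 2, and none of the 3 bile acid genes without ENR 2 or without -VE 2. Of the 3 ion transporters 1 was called without ENR 1, 2 or 3, and 2 without -VE 1 or -VE 2.

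Among genes of sugar metabolism, Khk, the ketohexokinase that starts fructose breakdown, was at 162, 184 and 196 CPM in ENR and 92.0 and 74.2 in -VE (log2 fold change -1.12, edgeR adjusted p = 0.00241). Of 12 genes of fructose use and gluconeogenesis 4 fell, against 1.20% of all genes. Among them were Khk, Slc2a5 and Pck1, the gluconeogenic carboxykinase (-2.75, adjusted p = 0.0337). In 20 of 24 glycolytic genes both -VE libraries exceeded every ENR library, against 3811 of the 16037 genes tested, but none was called higher. Of these 24 only Pklr, the pyruvate kinase of absorptive cells, was called, and it fell (-1.12, adjusted p = 0.0031). Pkm, the other pyruvate kinase, was at 812, 906 and 818 CPM against 1431 and 1496 (0.79, adjusted p = 0.00193). The glycolysis median was 0.34 both in the mixture and with class shares equal, whereas the fructose list median moved from -0.90 to -0.63. Slc2a5 kept its call whichever library was left out, while Khk lost its call without -VE 2, Pklr without ENR 2 and Pck1 in all 5 such fits. Acaa1b, a peroxisomal thiolase, was the only fall among 26 genes of fat oxidation and ketogenesis (-1.61, adjusted p = 0.012), and it lost its call without -VE 1 or -VE 2.

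Of 24 tested genes of retinoid metabolism 7 fell and 0 rose, 12 had an unadjusted p under 0.05 and DESeq2 called 10. Among all 16037 genes 1.20% were called lower, 3847 had an unadjusted p under 0.05 and DESeq2 called 562. Adh1, which oxidises retinol, was at 280, 329 and 335 CPM in ENR and 77.6 and 102 in -VE (log2 fold change -1.81, edgeR adjusted p = 0.0448). Aldh1a1, which makes retinoic acid, was at 101, 129 and 88.9 CPM against 39.7 and 19.3 (-1.85, adjusted p = 0.0191). Dhrs3, a retinaldehyde reductase, was at 37.2, 41.2 and 38.3 CPM against 16.9 and 9.92 (-1.54, adjusted p = 0.00572). Its difference at equal class shares was -1.37, close to that of the mixture. Adh7, Bco2, Rbp7 and Rdh7 completed the 7. Isx, the homeobox repressor of vitamin A uptake genes, named after its values were seen, was at 79.0, 85.3 and 86.4 CPM against 32.4 and 5.14 and was not called (-2.16, adjusted p = 0.115). Without -VE 2 only Dhrs3 of the 7 was still called.

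Among 24 cytochromes P450, 5 fell and 1 rose, against 1.20% and 1.35% of all 16037 genes. Of these 16037, 3847 had an unadjusted p under 0.05 and DESeq2 called 562. Cyp1a1, the classical target of the aryl hydrocarbon receptor, had 6, 17 and 0 UMIs in ENR 1, 2 and 3 and 397 and 388 in -VE 1 and 2, or at most 0.142 CPM against 3.40 and 2.36 (log2 fold change 5.22, SE 0.56, edgeR adjusted p = 0.0031). Cyp4v3, a fatty acid hydroxylase, was at 13.1, 14.9 and 12.7 CPM against 5.66 and 4.08 (-1.48, adjusted p = 0.00241), and Cyp2u1 at 7.98, 9.71 and 8.99 CPM against 2.99 and 2.50 (-1.70, adjusted p = 0.00205). These 3 genes were called whichever library was left out, and Cyp2c68, Cyp3a13 and Cyp4f14 were not called without -VE 2. Of 11 carboxylesterases Ces1d, Ces1e and Ces1f fell (-1.01, -1.03 and -1.37), and none of these was called without -VE 2. As differences of log2(CPM + 0.5), Ces1d, Ces1e and Ces1f moved from -0.94, -0.97 and -1.34 to -0.56, -0.58 and -0.50 at equal class shares. Within classes Ces1d was called lower in SC (-1.68), and Ces1e and Ces1f were not called in any class. Ces2a, another carboxylesterase, was called higher in EP (1.19, edgeR adjusted p = 0.0258). Of 34 conjugating and efflux genes 6 fell and 0 rose, with 19 at an unadjusted p under 0.05 and 7 called by DESeq2, among them the sulfotransferase Sult1d1 at 84.3, 96.9 and 101 CPM against 28.3 and 23.4 (-1.86, adjusted p = 0.00744) and the glucuronosyltransferase Ugt2a3 (-1.34, adjusted p = 0.00287). Without -VE 2, 2 of these 6 were called. Gsta4, a glutathione transferase that clears lipid peroxidation products and was named after its values were seen, was at 123, 135 and 147 CPM against 234 and 367 (1.15, adjusted p = 0.0526).

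Of 18 tested Paneth cell products other than defensins, 6 rose and 1 fell, against 1.35% and 1.20% of all 16037 genes. Of these 16037, 3847 had an unadjusted p under 0.05 and DESeq2 called 562. Mmp7, the protease that activates defensins, was at 21.3, 22.7 and 21.9 CPM in ENR and 54.3 and 52.0 in -VE (log2 fold change 1.27, edgeR adjusted p = 0.00263). Itln1, an intelectin that binds microbial sugars, was at 359, 363 and 423 CPM against 638 and 993 (1.09, adjusted p = 0.0416). Mptx1, a pentraxin, moved the other way, at 108, 83.5 and 132 CPM against 26.8 and 21.6 (-2.16, adjusted p = 0.0167). The other rises were Ang4, Pla2g5, Wnt3 and Copz2, a coatomer subunit (2.07, adjusted p = 0.00811). Lyz1, lysozyme, was at 360, 339 and 398 CPM against 869 and 1267 and missed the adjusted threshold (1.55, adjusted p = 0.0724). Of 22 alpha-defensins tested over all kept cells none was called by edgeR and 1 by DESeq2, 3 had an unadjusted p under 0.05, and Defa24 was at 2589, 2646 and 3433 CPM against 2576 and 2385. The list median was 0.33 in the mixture and 0.23 with class shares equal. Mmp7 alone of the 7 was called without -VE 2. These are sums over all kept cells. By class, Wnt3 had its highest means in enteroendocrine cells, 141 CPM in -VE and 85.9 in ENR, against 75.2 and 52.8 in Paneth cells. Pla2g5 had means of 32.8 CPM in -VE and 24.1 in ENR in stem cells and 28.4 and 13.3 in TA cells. It was called higher in EC (2.10, edgeR adjusted p = 0.00607). In the Paneth cell fit 1.07% of all genes were called in either direction. Within Paneth cells 2 of 17 tested products rose, Ang4 (1.33, edgeR adjusted p = 0.0286) and Copz2, and 2 fell, while Mmp7 (0.33, adjusted p = 0.553), Itln1 (0.24, adjusted p = 0.586) and Wnt3 (0.47, adjusted p = 0.435) were not called, and Pla2g5 had a mean of 5.00 CPM in -VE and 15.4 in ENR (-1.44, adjusted p = 0.303). Of 22 alpha-defensins tested within Paneth cells 4 fell, among them AY761184 (-1.47, edgeR adjusted p = 0.000251), and 1 of the 4 was still called without ENR 2 and 2 without -VE 2. Alpha-defensins are near-identical copies, between which reads can be split.

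In sums over all kept cells proliferation genes differed little. Of 29 S phase genes 27 had a positive change, with a median of 0.16 (0.07 at equal class shares) and both -VE libraries above every ENR library in 21, against 8121 positive and 3811 apart upward of all 16037 genes, and none was called by edgeR or DESeq2, with 10 at an unadjusted p under 0.05. The 25 mitosis genes had a median of 0.02, and none was called by either tool, with 2 at an unadjusted p under 0.05. Such a p was reached by 3847 of all 16037 genes. Cdkn2b, a cell cycle inhibitor, fell from 26.2, 32.3 and 29.5 CPM in ENR to 14.2 and 8.15 in -VE (log2 fold change -1.40, edgeR adjusted p = 0.0129). Hnf4g, a transcription factor of enterocytes, was at 22.7, 21.8 and 24.1 CPM against 10.9 and 10.6 (-1.09, adjusted p = 0.0248), the only call among 25 gut identity factors in these sums. Cldn23, a claudin of differentiated surface cells, changed by -1.48 (adjusted p = 0.00643) and Cldn8 by -1.09 (adjusted p = 0.0294). They were the 2 calls of the claudin and junction list, against 1.35% of all genes called higher and 1.20% lower. Cldn8 was at 1.04 to 1.28 CPM in ENR and 0.667 and 0.414 in -VE. Within classes Cldn23 was called lower in EC (-1.40) and Cldn8 in TA (-1.22). Cldn4 was called higher in TA (1.48, edgeR adjusted p = 0.00248) and Cldn2 in EC (1.33, adjusted p = 0.00308). Hnf4g was not called in any fit that left out a library, Cldn8 in all but the one without -VE 1, Cdkn2b was not called without ENR 2 or -VE 2, and Cldn23 not without -VE 2. Ezh2, the target of the inhibitor absent from both media, was at 112.0 to 116 CPM in ENR and 116 and 113 in -VE.

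Other groups had few calls or none in sums over all kept cells, where edgeR called 2.55% of all 16037 genes and DESeq2 called 562. An unadjusted p under 0.05 was reached by 3847 of them. Of 6 tested Reg lectins 2 fell, Reg3a and Reg3d, and both lost their calls without ENR 2 and without -VE 2. Isg15, an interferon-induced ubiquitin-like protein, was the only call among 29 interferon genes (log2 fold change -2.12, edgeR adjusted p = 0.0376), and it was not called in any of the 5 fits that left out a library. None of 16 gut hormones and 28 endocrine factors was called by edgeR, DESeq2 called 1 in each list, and 1 and 4 had an unadjusted p under 0.05. In the same sums none of 19 Notch pathway genes or 24 cholesterol synthesis genes was called by edgeR or DESeq2, with 6 and 8 at an unadjusted p under 0.05. Jag2, a Notch ligand, was called in goblet cells, as given with that class.

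**Figure D3:**
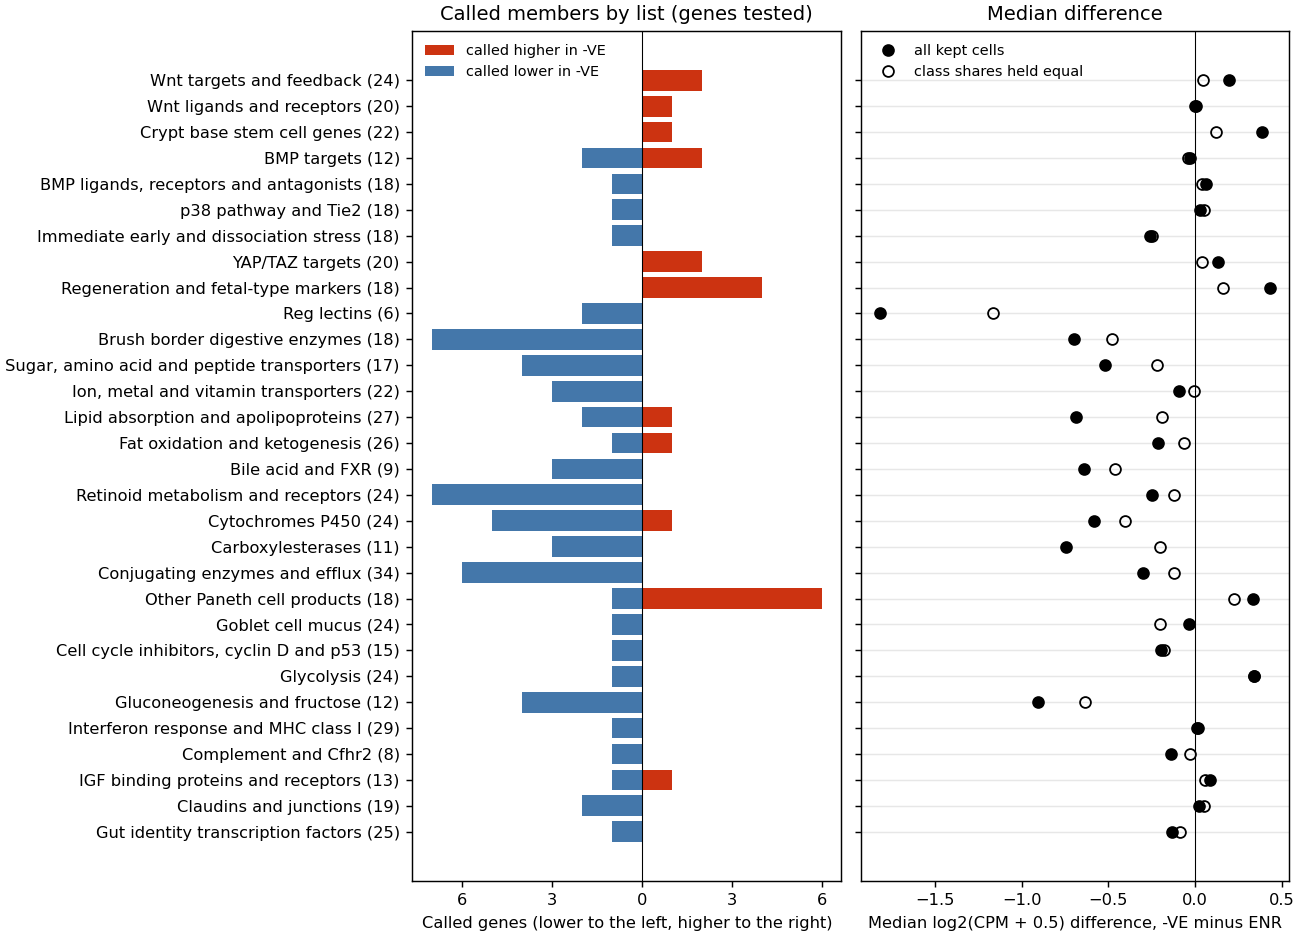
Left, number of called genes (higher to the right, lower to the left) in the 30 gene lists with at least 1 call, with the genes tested in parentheses. Right, list medians of the log2(CPM + 0.5) difference, -VE minus ENR, for all kept cells (filled) and with class shares held equal (open). Digestive enzymes and retinoid genes have 7 lower members each, and most open points lie nearer 0 than the filled ones.

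Within the classes, UMIs were summed per library and class and fitted alike, for libraries with at least 20 cells of the class. Calls were most frequent in enterocytes, at 373 of 11154 genes (3.34%), then in GC at 133 of 11714 (1.14%), PC at 64 of 5995 (1.07%), TA at 150 of 14553 (1.03%), SC at 70 of 13920 (0.503%), EP at 55 of 12138 (0.453%) and EE at 21 of 11050 (0.190%). Summed depth differed between classes, from 680340 UMIs in the smallest Paneth library to 101870000 in the largest TA library, so the counts are not compared as effects. The EP and PC fits held only the 5 libraries. When a library was left out, the counts ran from 116 to 442 in EC, 11 to 167 in GC, 10 to 90 in PC, 39 to 133 in TA, 8 to 96 in SC, 7 to 91 in EP and 3 to 64 in EE.

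**Figure D4:**
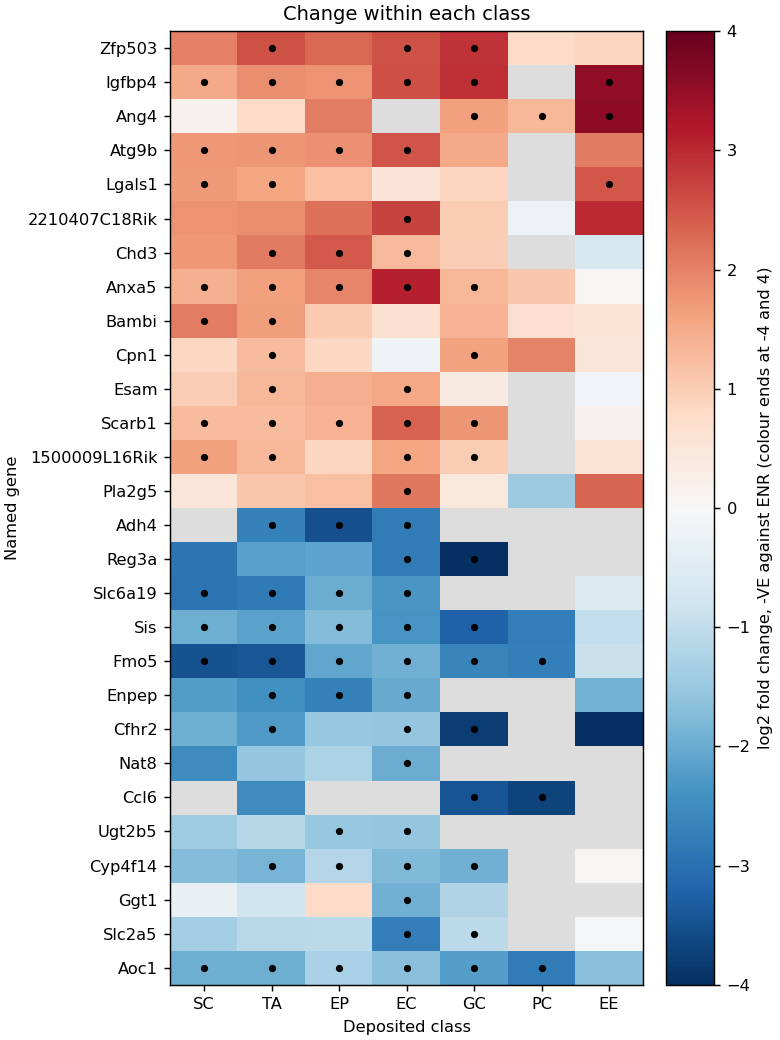
Log2 fold change, -VE against ENR, of the same 28 genes within each deposited class. Colour runs from -4 to 4, dots mark called genes and grey marks genes not tested. Igfbp4 carries a dot in each of the 6 classes where it was tested, and Fmo5 and Aoc1 in each class except EE.

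Stem and TA cells had 7 named genes in common. In stem cells Gsta4 was at 96.8, 79.7 and 78.9 CPM of the class in ENR and 234 and 330 in -VE (log2 fold change 1.73, edgeR adjusted p = 0.0175). Igfbp4 was at 76.6, 70.5 and 63.1 CPM against 157 and 244 (1.51, adjusted p = 0.0074), and Lgals1 and Scarb1 rose by 1.72 and 1.25. The named falls were Fmo5, from 17, 21.7 and 22.8 CPM to 2.54 and 1.14 (-3.49, adjusted p = 0.00377), Sult1d1 (-2.02), Aoc1 (-1.94) and Id3 (-1.66). In TA cells Lgals1 was called as well (1.59), and the other 7 were named again: Gsta4 (1.78), Igfbp4 (1.87), Scarb1 (1.25), Fmo5 (-3.42), Id3 (-2.55), Aoc1 (-1.96) and Sult1d1 (-1.93), while Gm3776 rose from 5.64, 7.10 and 3.57 CPM to 19.3 and 25.4 (2.02, adjusted p = 0.0207). Gm3776 lies in the glutathione transferase alpha cluster, whose members share sequence, so its reads may be uncertain. Id3 in TA cells was at 46.5, 56.5 and 42.5 CPM against 7.78 and 8.80 (adjusted p = 0.000528). Lgr5 did not differ within stem cells at this spread, at 105, 113 and 93.6 CPM against 102 and 81.1 (-0.19, adjusted p = 0.526). Cyp1a1 was called in both classes, at no more than 0.331 CPM in any ENR stem cell sum and at 4.29 and 3.39 in -VE (4.11, adjusted p = 0.0144). Sis had means of 7.76 CPM in ENR and 2.03 in -VE in stem cells and 10.7 and 2.47 in TA cells. Its means in enterocytes were 1400 and 275, and it was called lower in each of these classes. Enterocytes and their progenitors were less frequent in -VE, and the part of free RNA and doublets in the stem and TA values was not tested. Called whichever library was left out were 3 of 8 genes in SC (Fmo5, Aoc1 and Id3) and 5 of 8 in TA (those 3, Igfbp4 and Sult1d1). In SC 3 of 8 were called without ENR 1 and 4 of 8 without -VE 2, and in TA 5 of 8 without ENR 2 or -VE 2.

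In enterocyte progenitors 2 of 17 digestive enzymes fell and 0 rose, and of 21 cytochromes P450 3 rose and 1 fell, against 0.453% of genes called. In the 105 and 184 progenitors of -VE 1 and 2, Fmo5 was at 11.6 and 10.5 CPM, against 43.9, 51.2 and 44.4 in ENR (log2 fold change -2.07, edgeR adjusted p = 0.00051), Slc6a19 changed by -2.0 and Sis by -1.72. Id3 changed by -1.70. The 4 named rises were Itln1 from 23.8, 21.4 and 12.4 CPM to 78.5 and 106 (2.27, adjusted p = 0.00671), the glutathione transferase Gsta1 (1.95), Cyp2c55 (1.82) and Igfbp4 (1.80). Itln1 had a mean of 50.5 CPM in ENR and 151 in -VE in stem cells (1.60, adjusted p = 0.121), 36.8 and 125 in TA cells (1.77, adjusted p = 0.0766) and 24.5 and 69.4 in enterocytes (1.53, adjusted p = 0.0665), against 26656 and 31538 in Paneth cells, and the part of free RNA in these values was not tested. Apoa4, an apolipoprotein, was at 17.6, 16.1 and 15.9 CPM against 43.0 and 27.2 (1.08, adjusted p = 0.0192). Called in each fit without a library were 2 of the 8 named genes, Fmo5 and Id3, with 3 of 8 called without -VE 2.

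In enterocytes 9 of 18 digestive enzymes fell and 1 (Akp3, an intestinal phosphatase) rose, and 9 of 12 genes of fructose use and gluconeogenesis fell, against 3.34% of genes called in either direction. Fbp1, a gluconeogenic phosphatase, was at 108, 105 and 85.5 CPM in ENR and 24.1 and 24.6 in -VE (log2 fold change -2.03, edgeR adjusted p = 0.000352), although its sum over all cells was at 33.7 to 38.4 CPM in all 5 libraries. Tkfc, which phosphorylates fructose-derived glyceraldehyde, was at 877, 952 and 892 CPM against 279 and 245 (-1.79, adjusted p = 0.000664). The groups did not overlap in these 2 genes, which were named after their values were seen. Aqp8 changed by -3.79, 1700016C15Rik by -3.0, Adh4 by -2.80 and Reg3a by -2.80, and Guca2a and Guca2b, the guanylin hormones, by -2.20 and -2.06. On the other side, Lgr5 was at 5.92, 6.50 and 7.66 CPM against 33.2 and 17.9 (1.91, adjusted p = 0.00219). Without the 5 richest cells of each library its plain CPM was 3.27 to 4.79 against 27.4 and 14.2. Stem cells, which express Lgr5, were more frequent in -VE, and the part of free RNA and doublets in the enterocyte values was not tested. Slc12a2, an ion cotransporter of crypt cells, was at 70.0, 61.3 and 44.9 CPM against 139 and 135 (1.22, adjusted p = 0.00441). Anxa10 (3.03), 2210407C18Rik (2.71) and Scarb1 (2.36) were named rises, as was Zg16, a goblet cell lectin (4.62), at 2.63, 2.42 and 4.87 CPM in ENR and 2.66 and 154 in -VE. Zg16 overlapped between groups, and 99.4% of its UMIs in -VE 2 came from 5 cells. Its change was -0.41 without the 5% of cells with the most UMIs and -0.32 without -VE 2. Anxa10 was likewise not called without the 5% of cells with the most UMIs (2.92, adjusted p = 0.0531). Of the 8 named enterocyte genes 2210407C18Rik, Aqp8, 1700016C15Rik and Adh4 were called whichever library was left out, and without -VE 2, 3 of the 10 called digestive enzyme genes and 4 of the 9 fructose genes were still called.

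In goblet cells 4 of 18 Paneth cell products other than defensins rose and 2 fell, against 1.14% of genes called. Lyz1 in goblet cells was at 3694, 2868 and 3242 CPM in ENR and 8377 and 11740 in -VE (log2 fold change 1.62, edgeR adjusted p = 0.0232). Ang4 was at 79.5, 112 and 89.8 CPM against 204 and 385 (1.65, adjusted p = 0.00659). Mptx1 was at 1954, 1430 and 3029 CPM against 306 and 236 (-2.98, adjusted p = 0.00527). Igfbp4 rose by 2.92 and Mt3, a metallothionein, from 20.5, 10.4 and 11.6 CPM to 99.7 and 75.3 (2.65, adjusted p = 0.000733), and R3hdml rose by 1.73. Falls were Ccl6 from 149, 200 and 297 CPM to 12.5 and 25.7 (-3.44, adjusted p = 0.00659), Sis (-3.23), Reg1 (-4.55) and Ctrb1, a chymotrypsinogen (-5.64). The ENR values of Ctrb1 and Reg1 rest on few cells, since the 5 richest cells of a library held most of their UMIs. The part of doublets and of free RNA in the goblet values was not tested. Jag2, a Notch ligand, was at 2.67, 2.93 and 1.57 CPM against 8.61 and 13.7 (2.20, adjusted p = 0.0052). Igfbp4, Mt3 and Ctrb1 were called in every fit that left out a library, and only they of the 8 without -VE 2. Of the 6 Paneth cell products 1 was still called without -VE 2, and 3 or 4 without another library.

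In Paneth cells, of 15 tested immediate early genes 6 fell and 0 rose, against 1.07% of genes called. Atf3 was at 175, 132 and 146 CPM in ENR and 30.3 and 27.3 in -VE (log2 fold change -2.39, edgeR adjusted p = 2.06e-05). Jun was at 511, 471 and 454 CPM against 241 and 160 (-1.27, adjusted p = 0.00215), and Fos at 676, 457 and 366 CPM against 271 and 153 (-1.25, adjusted p = 0.0192). The groups did not overlap. Egr2, an early growth response factor, changed by -3.40, Ccl6 by -3.70, Sult1d1 by -3.39 and Aoc1 by -2.79. Rises were Mt3 (2.41), Gsta4 from 16.6, 19.8 and 14.5 CPM to 65.3 and 72.1 (2.00, adjusted p = 0.000251), Lgmn, a lysosomal protease (1.94), and Copz2 (1.72). Of 22 tested mitosis genes 6 rose, among them Mki67 at 9.99, 11 and 33.2 CPM against 38.5 and 66.9 (1.62, adjusted p = 0.0346). Of those 6 mitosis genes 0 were called without ENR 2, 1 without ENR 1 and 2 without -VE 2 in the edgeR fits. Of the 6 immediate early genes, 2 were called without ENR 2 or without -VE 2. Among the 8 named genes Gsta4 and Ccl6 kept their calls in each fit. Summed Paneth depth was the lowest of all classes, from 32, 40 and 54 cells in ENR 1, 2 and 3 and 30 and 59 in -VE 1 and 2. The part of doublets and of free RNA in the Paneth values was not tested, including those of the mitosis genes, Sult1d1 and Aoc1.

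In enteroendocrine cells 3 of 17 tested Paneth cell products other than defensins rose and 0 fell, against 0.190% of genes called. Itln1 was at 79.3, 99.8 and 27.8 CPM in ENR and 884 and 1172 in -VE (log2 fold change 3.86, edgeR adjusted p = 0.0299). Ang4 was at 15.9, 37.9 and 12.8 CPM against 305 and 251 (3.58, adjusted p = 0.00998). Spink4, a goblet and Paneth cell peptide, was at 493, 635 and 377 CPM against 2066 and 2025 (2.02, adjusted p = 0.0203). These values come from 61 to 79 cells in ENR and 73 and 89 in -VE, and the 5 richest cells held 88% to 100% of the Ang4 UMIs. Lyz1 was not called (2.99, adjusted p = 0.0576), and its plain CPM of the class was 426, 524 and 316 against 2611 and 3621, and 157, 305 and 126 against 1413 and 2522 without the 5 richest cells of each library. In stem cells plain Lyz1 CPM was 68.8 to 80.2 in ENR and 62.3 and 51.9 in -VE. Igfbp4 and Mt3 rose by 3.53 and 2.11. The named falls were Il18r1 (-2.61), Amigo2 (-2.43), Gstt1, a glutathione transferase, from 547, 274 and 575 CPM to 68.5 and 103 (-2.43, adjusted p = 0.00998), and Fxyd6 (-1.82). Igfbp4 and Fxyd6 lost their calls with the 5 libraries alone, and Amigo2 with the number in the library names as a replicate block. None of the 8 was called in the edgeR fit without ENR 1, and 3 were called without -VE 2, with no gene called in each of the 5 such fits. The part of doublets and of free RNA in these values was not tested.

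**Figure D5:**
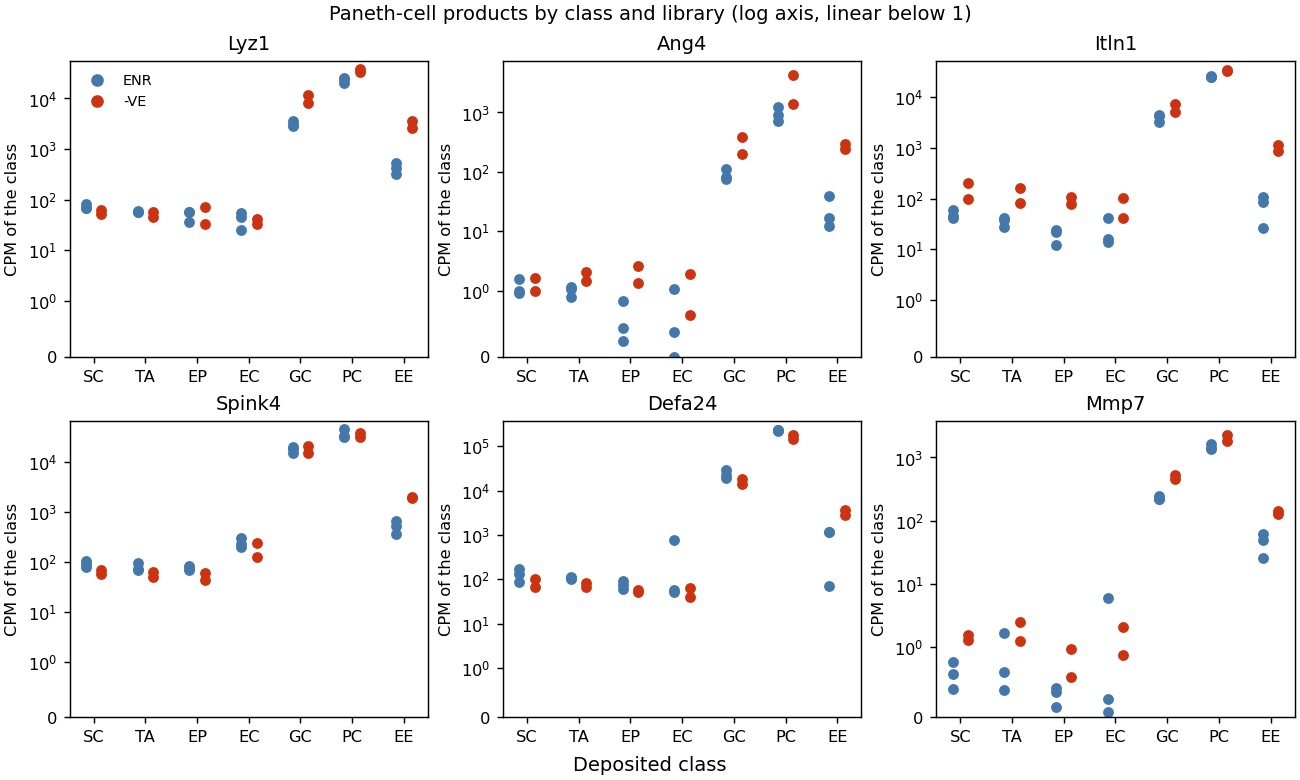
Plain CPM of 6 Paneth cell products in each deposited class, 1 point per library, ENR in blue and -VE in red, on a log axis that is linear below 1. Both -VE points of Lyz1 lie above the ENR points in goblet, Paneth and enteroendocrine cells, while its values in SC, TA, EP and EC lie under 100 CPM in all libraries.

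Whether a change differed between classes was tested in limma, as the change in a class minus the change in stem cells of the same libraries. In goblet cells 10 of 11614 genes differed (0.0861%), and Lyz1 had the largest positive difference from stem cells, with a change of 1.61 in goblet and -0.36 in stem cells (difference 1.96, SE 0.17, limma adjusted p = 0.000477). In enteroendocrine cells 20 of 10732 genes differed (0.186%), with Lyz1 at 2.99 against -0.36 (difference 3.34, SE 0.30, adjusted p = 0.00169). In enterocytes 67 of 11055 differed (0.606%), with Fbp1 at -2.01 against 0.28 (difference -2.29, SE 0.17, adjusted p = 0.00247) and Lgr5 at 1.83 against -0.20 (difference 2.02, SE 0.22, adjusted p = 0.00742). The Lyz1 and Fbp1 differences were called whichever library was left out, and that of Lgr5 in 4 of the 5 fits. In progenitors 33 of 11461 differed (0.288%), among them Cyp3a11, a drug-oxidising cytochrome P450, at 1.47 against -0.92 (difference 2.39), also called in each such fit. In TA cells 10 of 13879 differed (0.0721%), among them the mitotic kinase Aurka, at -0.01 against 0.99. In Paneth cells 1 of 5935 differed (0.0168%), Jun at -1.27 against -0.14 (difference -1.13, SE 0.14, adjusted p = 0.00824), called in 3 of the 5 fits. Without 1 library the counts ran from 1 to 37 for TA, 12 to 86 for EP, 2 to 31 for EC, 1 to 71 for GC, 0 to 6 for PC and 2 to 31 for EE, and with the 5 libraries alone 193 genes differed in EC.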

How the data were processed

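Per the labels, dissociated organoids were run on the 10x 3′ v3 platform. The submitters' processing notes name Cell Ranger 3.0.0, Seurat 3.1.4 and mm10, while the matrix headers carry 3.1.0. The deposited values are UMI counts per gene and cell, made by the authors without normalization, with an annotation of the kept cells. The study's stated cell filter differs from the deposited annotation, since 428 kept cells of these libraries have under 1500 genes. The deposited annotation was used, and no doublet caller was run here.

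Counts were summed per library, and per library and class with at least 20 cells, for 31053 genes. They were tested with edgeR 4.0.16 (quasi-likelihood, TMM, legacy dispersions) in R 4.3.3, with Benjamini-Hochberg adjustment. Differences between classes used limma 3.58.1 on log-scaled CPM (prior count 2). DESeq2 1.42.0 was an alternative, and fits with current edgeR dispersions were added after seeing the data. Scripts were tested on simulated data. Groups came from the sample labels. The libraries and the 52 gene lists were chosen with earlier results of these data known. Named were the 15 largest rises and 15 largest falls without overlap at 10 CPM or more, up to 5 genes per list, and per class and direction 4 genes at 20 CPM or more. Some genes that this rule selects are not reported here. Other genes were named after their values were seen. Promoters came from RefSeq. Totals of 89124000 to 170020000 UMIs per library limit only counting error, not the spread between 2 and 3 libraries.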

Additional observations from a re-analysis of the deposited data

Results flagged for a closer look

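Some genes changed in one class by a different amount than in stem cells of the same libraries, by limma's test of the difference itself (adjusted p under 0.05 and at least 2-fold). Values are log2 differences of the changes, class minus stem cells, and only the named genes are given. Of 10 in TA cells, those named were Lect2 (2.02), Fgd2 (1.85), Stox2 (1.55), Rnase1 (1.28), Hist1h2bb (-1.67), Hoxa7 (-1.32) and Aurka (-1.01). Of 33 in enterocyte progenitors, those named were Slfn2 (2.82), Cyp3a11 (2.39), Bace2 (1.77), Rhobtb1 (-2.71), Chrnb1 (-2.32), Tmem173 (-1.90) and Upk3b (-1.82). Of 67 in enterocytes, those named were Bace2 (2.87), Cpm (2.18), Lgr5 (2.02), Agpat4 (1.73), Plekho2 (-2.96), Vwce (-2.58), Fbp1 (-2.29) and Chac1 (-2.21). Of 10 in goblet cells, those named were Lyz1 (1.96), Jag2 (1.88), Igfbp4 (1.38), Rgcc (1.23), Reg1 (-3.27), Hist1h1c (-1.31), Gimd1 (-1.05) and Tnfaip8 (-1.0). In Paneth cells it was Jun (-1.13). Of 20 in enteroendocrine cells, those named were Ang4 (3.59), Lyz1 (3.34), Ceacam10 (2.97), Spink4 (2.57), Ssbp2 (-3.47), Car2 (-3.22), Gstt1 (-2.29) and Chd3 (-2.21). Whichever library was left out, the differences still called were Slfn2, Cyp3a11 and Upk3b in progenitors, Fbp1 in enterocytes, and Lyz1 in goblet and in enteroendocrine cells. Those of the other genes given here were lost in at least 1 such fit, and in TA cells none was called without -VE 2 by limma.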

How the results depend on the processing

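The 409 called genes became 166 with a minimum of 10 CPM, 669 over all barcodes (40.8% higher, against 53.1% over the kept cells) and 96 to 286 when 1 library was left out. DESeq2 called 562, and current edgeR dispersions, chosen after seeing the data, 418 (44.0% higher). The 80 called list members ran from 22 to 67 without 1 library. No named gene of the sums over all kept cells changed direction under any alternative run. The cause of the moves below was not tested, except that leaving out a library lowers the number of samples.

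With the 5 libraries alone, calls came to 163 in SC and 243 in TA. Without a filter beyond a total above 0 UMIs they came to 183 in SC, 238 in TA, 177 in EP, 588 in EC, 351 in GC, 131 in PC and 268 in EE, and without the 5% of cells with the most UMIs to 41 in EE. Without 1 library they ran from 8 to 96 in SC, 39 to 133 in TA, 7 to 91 in EP, 116 to 442 in EC, 11 to 167 in GC, 10 to 90 in PC and 3 to 64 in EE.

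Genes that differed from SC numbered 5 in TA, 193 in EC, 16 in GC and 12 in EE with the 5 libraries alone, and 17 in TA and 5 in GC with a prior count of 0.5. Without 1 library they ran from 1 to 37 in TA, 12 to 86 in EP, 2 to 31 in EC, 1 to 71 in GC, 0 to 6 in PC (limma, without -VE 2) and 2 to 31 in EE. The enterocyte change of Zg16 was -0.41 without the 5% of cells with the most UMIs and ran from -0.32 to 5.54 without 1 library.

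The share of kept cells in class PC, difference in percentage points, became -0.0685 under the stated cell filter. Without 1 library share differences ran from 1.95 to 3.54 for GC, -0.604 to -0.185 for PC and -0.902 to 0.0796 for EE, positive only without -VE 2.

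The labels give the pairs only a shared number. Deviations of libraries 2 and 6 correlated between ENR and -VE at r = 0.146 across 16037 genes, which are not independent. With that number as a replicate block, 439 genes were called, 342 of them among the 409, and 140 in SC, 110 in EP and 104 in PC. Within the pairs the share of kept cells in class EP, difference in percentage points, was -19.0.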

Other observations

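Genes below were chosen after their values were seen, and no list test was made. Beside Cyp1a1, other known targets of the aryl hydrocarbon receptor differed among themselves. Ahrr, its repressor, was at 0.0828, 0.109 and 0.0478 CPM in ENR and 0.308 and 0.237 in -VE (log2 fold change 1.72, edgeR adjusted p = 0.0267). Tiparp, a feedback ADP-ribosyltransferase, was at 30.3, 29.9 and 28.3 CPM against 26.6 and 24.6 (-0.21, adjusted p = 0.0713), and Nqo1, a quinone reductase, changed by 0.06.

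Mt3, a metallothionein, which binds zinc and copper, was at 1.27, 0.785 and 1.09 CPM in ENR and 10.2 and 7.87 in -VE (log2 fold change 3.12, SE 0.36, edgeR adjusted p = 0.00418), with a difference of 2.41 at equal class shares. Mt1 was at 3706, 3915 and 3146 CPM against 3682 and 2018 (-0.33, adjusted p = 0.518), with overlapping groups.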
